A study of Mus musculus with 2 samples.

Results

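The genes described here are 37 genes of glycolysis, of pyruvate and lactate handling and of the hypoxia-inducible factor (HIF) pathway, taken by symbol from the gene tables of 2 RNA sequencing libraries. All 37 were found among the 18651 genes listed in either library, and all 37 were among the 13758 genes called measured here, whose mean over both libraries reached 1 CPM (reads per 1000000 reads of the library). The libraries came from cultured mouse oligodendrocytes labelled Seh1cKO, genotype mutant, and from cells labelled control, genotype wild type, with 1 library of each. In both groups precursor cells of C57BL/6 forebrain cortex from pups of postnatal day 4 to 7 had been passed over plates coated with antibody to GalC and then to O4. The medium held CNTF at 10 ng/ml and, until differentiation, also PDGF-AA and bFGF at 20 ng/ml each and NT3 at 1 ng/ml, and the thyroid hormone triiodothyronine (T3) at 60 nM then started differentiation. Immature oligodendrocytes were sampled on day 2. The sources used here do not give the Cre line, the deleted exons or the number of animals behind each library.

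Glycolysis splits glucose into pyruvate. Lactate dehydrogenase turns pyruvate into lactate, which leaves or enters the cell through monocarboxylate transporters, and pyruvate dehydrogenase feeds it to the citric acid cycle unless pyruvate dehydrogenase kinases switch that enzyme off. When oxygen is short, the prolyl hydroxylases of the EGLN family stop marking HIF alpha subunits for degradation, and HIF activates genes of glucose uptake, glycolysis, lactate export, mitophagy and blood vessel growth. Oligodendrocytes build large amounts of membrane lipid from glucose carbon and can pass lactate to axons, and HIF activity in the lineage is known to delay maturation.

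The 37 genes were lower in Seh1cKO more often than higher, and most differences were small. In Seh1cKO 23 were lower and 14 higher, where 39.1% of all measured genes were lower and 60.9% higher. Their median log2 ratio of Seh1cKO over control, taken on log2(CPM + 1), was -0.20 (-0.31 to 0.03), against 0.07 over all measured genes. The range given with a list median is a 95% order-statistic interval over the genes of the list, which holds no counting error. On the same scale 3 genes (8.11%) were at least 2-fold lower, where the background of all measured genes was 1.29%. These were Slc16a3, Pdk1 and Bnip3. Adm alone was at least 2-fold higher, 1 of 37 against a background of 2.86%. At 1.5-fold, 6 of the 37 (16.2%) were lower, against 3.52% of all measured genes, and 1 (2.70%) was higher, against 9.43%. The lower count was 4 with a pseudocount of 5 CPM, without Ankrd37 and Egln3. Egln3 lies near the threshold, while Ankrd37, at 2.57 CPM in Seh1cKO and 4.78 CPM in control, is scarcer than that pseudocount. There was 1 library per group, so no test of the genotype was possible, and each difference is one between 2 cultures. The interval after the ratio of a single gene is an exact 95% interval that covers counting error alone.

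**Figure D1:**
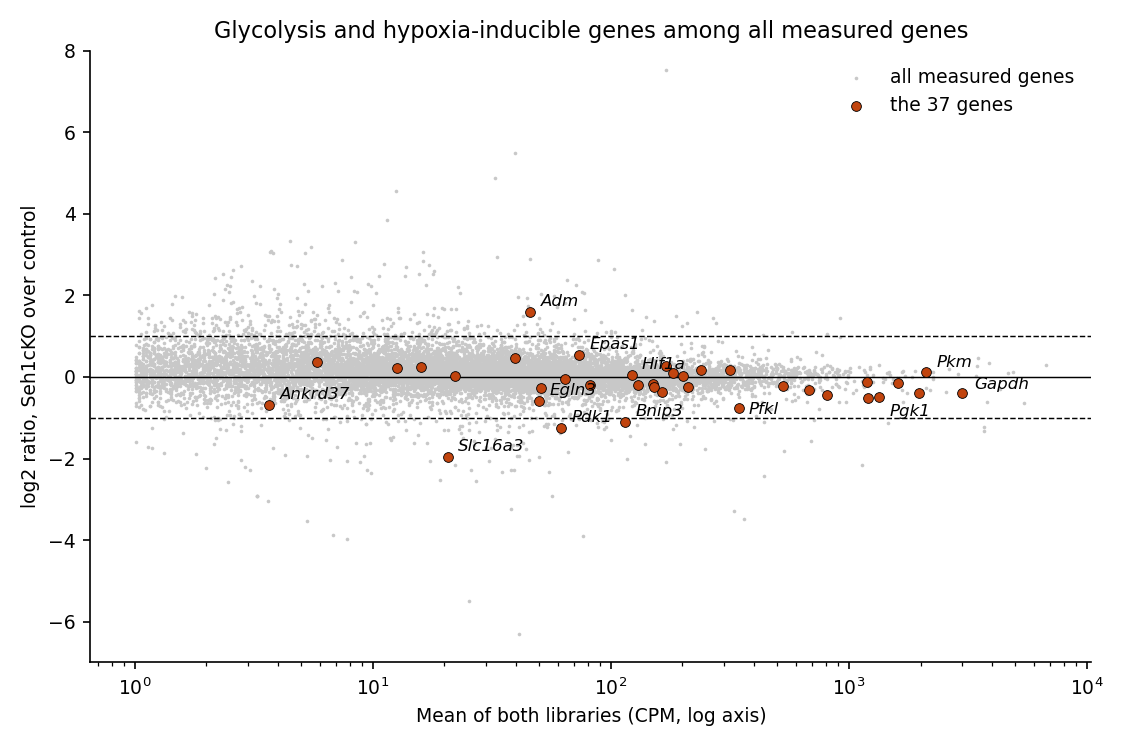
Log2 ratio of Seh1cKO over control against the mean of both libraries in CPM (log axis). Grey points are the 13758 measured genes and orange points the 37 genes, with dashed lines at 2-fold; Slc16a3, Pdk1 and Bnip3 lie below the lower line and Adm above the upper one, while the abundant glycolytic genes lie mostly just under 0.

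Facts of the libraries bear on every value below. The expected counts summed to 20599573 in Seh1cKO and 20730124 in control. Seh1l, the targeted gene, was at 18.5 CPM in Seh1cKO and 32.1 CPM in control, 1.73-fold lower (1.53 to 1.97). The 10 oligodendrocyte lineage markers summed to 2633 CPM in Seh1cKO and 4523 CPM in control, with 6 lower and 4 higher. Olig1 and Olig2 were at 873 and 648 CPM in Seh1cKO and 864 and 496 CPM in control. Sox10, a further lineage factor, was lower, at 207 CPM in Seh1cKO and 426 CPM in control. The myelin genes Cnp and Mbp were at 347 and 60.7 CPM in Seh1cKO and 1037 and 598 CPM in control. The precursor markers Pdgfra and Cspg4 were at 277 and 148 CPM in Seh1cKO and 156 and 98.8 CPM in control. Sox10, Mbp, Pdgfra and Cspg4 are named after their values were seen. Markers of other cells moved as well. The 12 astrocyte markers summed to 7921 CPM in Seh1cKO and 12173 CPM in control, with 9 of 11 measured markers lower, and the 12 fibroblast and mural markers to 1298 and 601 CPM, with all 11 measured markers higher. The 8 epithelial markers summed to 213 CPM in Seh1cKO and 11.05 CPM in control, the 9 endothelial ones to 30.7 and 12.2 CPM and the 8 microglial ones to 19.1 and 9.07 CPM. The 8 neuronal markers summed to 670 and 688 CPM, while their median log2 ratio had the other sign, at 0.39. Of these lists, 1 epithelial and 1 endothelial marker were listed at 0 in control and none in Seh1cKO. Xist, expressed from the inactive X chromosome of female cells, had a log2 ratio of 7.52, and the Y-linked genes Ddx3y and Eif2s3y had ratios of -5.50 and -6.31, so sex and genotype of the libraries cannot be told apart. Astrocytes and fibroblasts also express glycolytic and HIF genes, and the part of these cells in the values below was not tested. In bulk RNA, fewer cells of a type and less RNA per cell cannot be told apart.

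The 4 genes past 2-fold code for a transporter, a kinase, a mitochondrial receptor and a peptide hormone. Slc16a3, the lactate exporter of strongly glycolytic cells (Entrez 80879, GRCm38 chromosome 11, 120948484 to 120959000), had 161 reads in Seh1cKO and 697 in control. At 7.82 CPM in Seh1cKO and 33.6 CPM in control it was 4.30-fold lower (3.62 to 5.14), and 39 of all measured genes had a lower log2 ratio. It overlaps Csnk1d, a casein kinase gene at 255 CPM in Seh1cKO and 267 CPM in control, and without a stated strand setting reads of the overlap cannot be assigned with certainty. Pdk1, a kinase that inhibits pyruvate dehydrogenase and so keeps pyruvate out of the citric acid cycle (Entrez 228026, chromosome 2, 71873215 to 71903858), was at 36.1 CPM in Seh1cKO and 87.5 CPM in control. Bnip3, a receptor on the outer mitochondrial membrane that hands mitochondria to autophagy (Entrez 12176, chromosome 7, 138890836 to 138909506), was at 72.3 CPM in Seh1cKO and 157 CPM in control, 2.18-fold lower (2.05 to 2.32). Adm, the precursor of the vasodilator peptide adrenomedullin (Entrez 11535, chromosome 7, 110627657 to 110629820), went the other way, with 1431 reads or 69.5 CPM in Seh1cKO and 467 reads or 22.5 CPM in control, 3.08-fold higher (2.78 to 3.43). Endothelial cells and fibroblasts also make adrenomedullin, and the sums of both marker lists were higher in Seh1cKO, 2.53-fold and 2.16-fold. Of 5 measured endothelial markers 4 were higher in Seh1cKO and 1 lower. Cdh5 differed most, at 13.8 CPM in Seh1cKO and 1.01 CPM in control, and Esam was at 4.61 and 0.772 CPM. Kdr, the lower one, was at 4.95 and 5.35 CPM, and Cldn5, Emcn and Tek had at most 4 reads in either library. The part of these cells in the Adm value was not tested. The authors' deposited table of 896 genes lists these 4 and none of the other 33, with log2 fold changes of -2.10 for Slc16a3, -1.28 for Pdk1, -1.12 for Bnip3 and 1.62 for Adm. That table is computed from the same 2 libraries.

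The promoters of these 4 genes and of Ldha, the most abundant gene of lactate handling, are shown because HIF binds a short core element, ACGTG or GCGTG, in many of its targets. Each run covers 250 bases before and 50 bases after a transcription start, from RefSeq on GRCm38.p6, written 5′ to 3′ along the gene. Capitals mark ACGTG and GCGTG on either strand, so that CACGT and CACGC in capitals are their reverse complements; where the letters CACGTG stand, matches on both strands overlap.
Slc16a3 (chr11:120948817-120949116, plus strand): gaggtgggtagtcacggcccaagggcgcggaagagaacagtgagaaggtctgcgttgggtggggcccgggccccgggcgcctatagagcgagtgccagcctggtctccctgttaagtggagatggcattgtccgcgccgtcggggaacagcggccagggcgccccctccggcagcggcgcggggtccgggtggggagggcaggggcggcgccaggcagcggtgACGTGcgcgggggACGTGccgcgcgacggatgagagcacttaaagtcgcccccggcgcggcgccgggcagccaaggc
Pdk1 (chr2:71872974-71873273, plus strand): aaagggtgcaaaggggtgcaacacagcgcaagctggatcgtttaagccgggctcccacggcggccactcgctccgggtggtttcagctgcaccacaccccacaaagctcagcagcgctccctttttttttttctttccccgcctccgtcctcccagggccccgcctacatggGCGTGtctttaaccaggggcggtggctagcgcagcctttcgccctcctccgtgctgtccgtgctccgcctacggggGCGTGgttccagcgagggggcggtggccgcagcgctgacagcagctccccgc
Bnip3 (chr7:138909457-138909756, minus strand): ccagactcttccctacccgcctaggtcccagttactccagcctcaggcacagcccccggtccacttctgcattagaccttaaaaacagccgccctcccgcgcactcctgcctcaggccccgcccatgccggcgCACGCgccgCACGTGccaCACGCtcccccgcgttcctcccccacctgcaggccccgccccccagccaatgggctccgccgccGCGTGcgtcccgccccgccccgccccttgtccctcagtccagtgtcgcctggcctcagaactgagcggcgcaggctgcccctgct
Adm (chr7:110627407-110627706, plus strand): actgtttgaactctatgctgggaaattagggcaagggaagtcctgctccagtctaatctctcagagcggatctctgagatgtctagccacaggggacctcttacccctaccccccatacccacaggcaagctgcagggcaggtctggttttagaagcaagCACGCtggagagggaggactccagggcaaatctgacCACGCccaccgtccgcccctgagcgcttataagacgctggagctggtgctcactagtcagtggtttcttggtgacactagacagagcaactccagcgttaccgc
Ldha (chr7:46845554-46845853, plus strand): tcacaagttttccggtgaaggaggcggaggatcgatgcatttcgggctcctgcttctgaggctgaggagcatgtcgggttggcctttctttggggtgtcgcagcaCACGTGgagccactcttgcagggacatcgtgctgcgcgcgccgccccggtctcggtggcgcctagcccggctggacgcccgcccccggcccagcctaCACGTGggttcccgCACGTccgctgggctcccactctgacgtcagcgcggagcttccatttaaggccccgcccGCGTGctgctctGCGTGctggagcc

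The Slc16a3 window held 2 copies of ACGTG, which begin 27 and 14 bases before the start. The Bnip3 window held CACGTG, matched on both strands and beginning 108 bases before the start, beside 2 CACGC and 1 GCGTG. The Ldha window shown held 7 matches, among them CACGTG beginning 145 and 48 bases before the start. The first window of Pdk1, lower in Seh1cKO, and the window of Adm, higher in Seh1cKO, both lacked ACGTG and held 2 matches of GCGTG or its complement each. A second Pdk1 window held neither motif, and a second Ldha window held 2 matches and no ACGTG. Of the 37 genes 34 had a window, 48 windows in all, and ACGTG stood in 26 of these (54.2%), against 24.8% of 13981 windows of measured genes and 19.6% of all 32851 windows. For GCGTG the shares were 54.2%, 49.9% and 32.4% over the same sets. At least 1 of the motifs stood in 79.2% of the 48 windows, against 61.2% of windows of measured genes and 43.8% of all windows. Of genes with a window, 19 of 21 that were lower in Seh1cKO and 12 of 13 that were higher held at least 1 of the motifs. ACGTG was held by 16 of the 21 lower genes and 7 of the 13 higher ones. These shares by gene were not counted for all measured genes, and a gene with several windows is more likely to hold a match. A match describes the sequence and is not a measured binding site, and genes with several windows count more than once in the shares of windows.

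The enzymes of glycolysis itself were the most abundant of the 37. The 14 genes together took 1.28% of all reads in Seh1cKO and 1.53% in control. Without Gapdh, the most abundant of them, the shares were 1.03% and 1.19%. In Seh1cKO 10 of 14 were lower (71.4%, against 39.1% of all measured genes) and 4 higher, with a median log2 ratio of -0.19 (-0.44 to 0.16). In either direction 0 passed 2-fold, where 1.29% of all measured genes were at least 2-fold lower and 2.86% higher. Pfkl, the liver-type subunit of phosphofructokinase, the main control point of the pathway, differed most. It was at 256 CPM in Seh1cKO and 433 CPM in control, 1.69-fold lower (1.63 to 1.75).

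Of the genes for the steps from the triose phosphates to phosphoenolpyruvate, all but Eno2 were lower in Seh1cKO. Tpi1, which interconverts the triose phosphates, was at 685 CPM in Seh1cKO and 927 CPM in control, 1.35-fold lower (1.32 to 1.38). Gapdh, which makes the first reduced cofactor of the pathway, ranked 13th of all genes by CPM in Seh1cKO and 11th in control, at 2575 and 3393 CPM, 1.32-fold lower (1.30 to 1.33). Pgk1, the first ATP-yielding enzyme, was at 1118 CPM in Seh1cKO and 1570 CPM in control, 1.40-fold lower (1.38 to 1.43). Pgk1 is X-linked, and the libraries differ in sex-linked expression as given above. Pgam1, the mutase that follows, was 1.24-fold lower (1.22 to 1.27). Eno1, the ubiquitous enolase, was at 1712 CPM in Seh1cKO and 2234 CPM in control, 1.30-fold lower (1.29 to 1.32).

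Several of these genes have near-identical copies elsewhere in the genome, between which reads can be split. For Eno1 the table also lists the copy Eno1b, at 1015 CPM in Seh1cKO and 1089 CPM in control. Summed, Eno1 and Eno1b were at 2727 and 3323 CPM, 1.22-fold lower (1.21 to 1.23). Leaving out the 8 genes known for such copies (Gapdh, Pgk1, Ldha, Eno1, Aldoa, Tpi1, Pgam1 and Pkm) brought the median of the glycolytic enzymes to -0.04 and that of all remaining genes of the 37 to -0.13. A Pfkm neighbour, Senp1, a Pfkp neighbour, Pitrm1, and a Tpi1 neighbour, Spsb2, overlap these genes and were at mean levels of 44.3, 78.8 and 16.8 CPM.

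The 4 glycolytic genes that were higher in Seh1cKO were Hk1, Pfkp, Eno2 and Pkm. Hk1, the hexokinase of most brain cells, was at 252 CPM in Seh1cKO and 225 CPM in control, 1.12-fold higher (1.08 to 1.16). Hk2, the inducible hexokinase, was at 63.4 CPM in Seh1cKO and 65.2 CPM in control, and the interval of its ratio, 0.900 to 1.05, included equality. Pkm, pyruvate kinase, was at 2201 CPM in Seh1cKO and 2005 CPM in control, 1.10-fold higher (1.08 to 1.11). Gpi1, the isomerase after hexokinase, was 1.10-fold lower (1.08 to 1.12) and Aldoa, the main aldolase, 1.12-fold lower (1.10 to 1.13). Among the other phosphofructokinase subunits, the muscle-type Pfkm was 1.17-fold lower (1.14 to 1.20) and the platelet-type Pfkp 1.20-fold higher (1.14 to 1.25). Eno2, the neuron-enriched enolase, had 945 reads in Seh1cKO and 685 in control and was 1.39-fold higher (1.26 to 1.53).

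**Figure D2:**
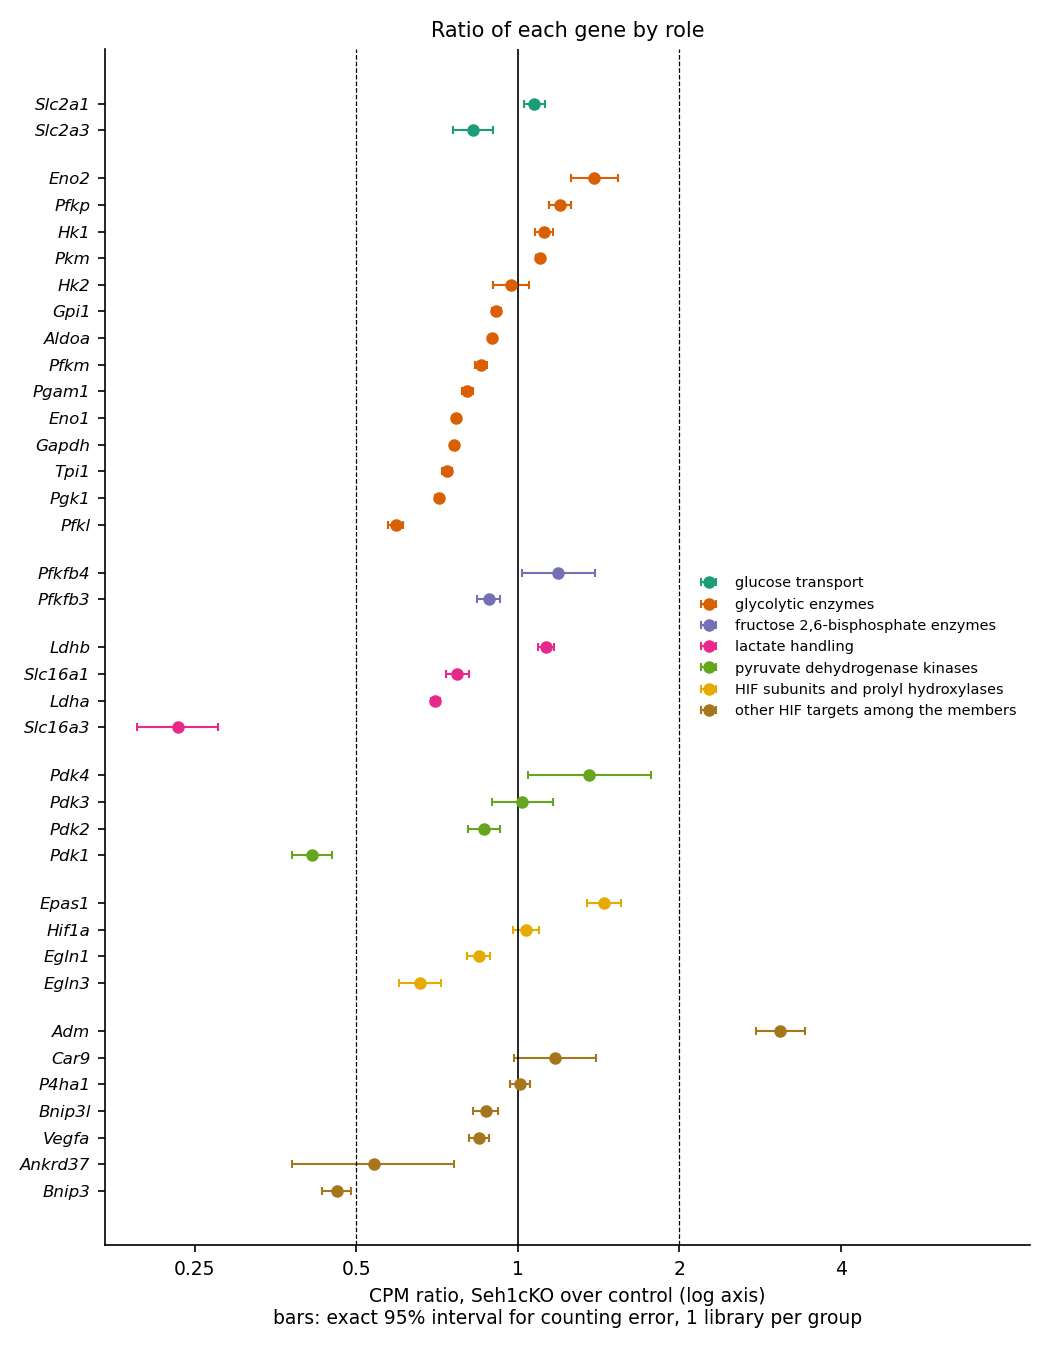
Ratio of CPM in Seh1cKO over control for each of the 37 genes by role (log axis), with exact 95% intervals for counting error from 1 library per group. Slc16a3, Pdk1 and Bnip3 lie left of the dashed line at 0.5, Adm lies right of the line at 2, and the 14 glycolytic enzymes run from 0.591 for Pfkl to 1.39 for Eno2.

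Per length, as FPKM (reads per kilobase of transcript and per 1000000 reads), levels of different genes can be compared within a library. Phosphofructokinase transcripts summed to 281 FPKM in Seh1cKO and 351 FPKM in control. Pfkm made up 59.7% of that sum in Seh1cKO and 56.5% in control, Pfkl 24.1% and 32.7%, and Pfkp 16.2% and 10.9%. The liver-type share was thus lower and the platelet-type share higher in Seh1cKO, with the muscle type leading in both. Hexokinase transcripts summed to 71.4 and 65.3 FPKM, of which Hk1 gave 84.1% in Seh1cKO and 82.1% in control. Glucose transporter transcripts summed to 84.8 and 82.3 FPKM. Per length, phosphofructokinase, triose-phosphate isomerase, Gapdh, phosphoglycerate kinase, phosphoglycerate mutase and enolase were each between 1.24-fold and 1.40-fold lower in Seh1cKO. The enolase sum holds Eno1 and Eno2 and leaves out the copy Eno1b, at 568 FPKM in Seh1cKO and 609 FPKM in control. The isomerase Gpi1 and the aldolase Aldoa were 1.10-fold and 1.12-fold lower, and pyruvate kinase and hexokinase were 1.10-fold and 1.09-fold higher.

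**Figure D3:**
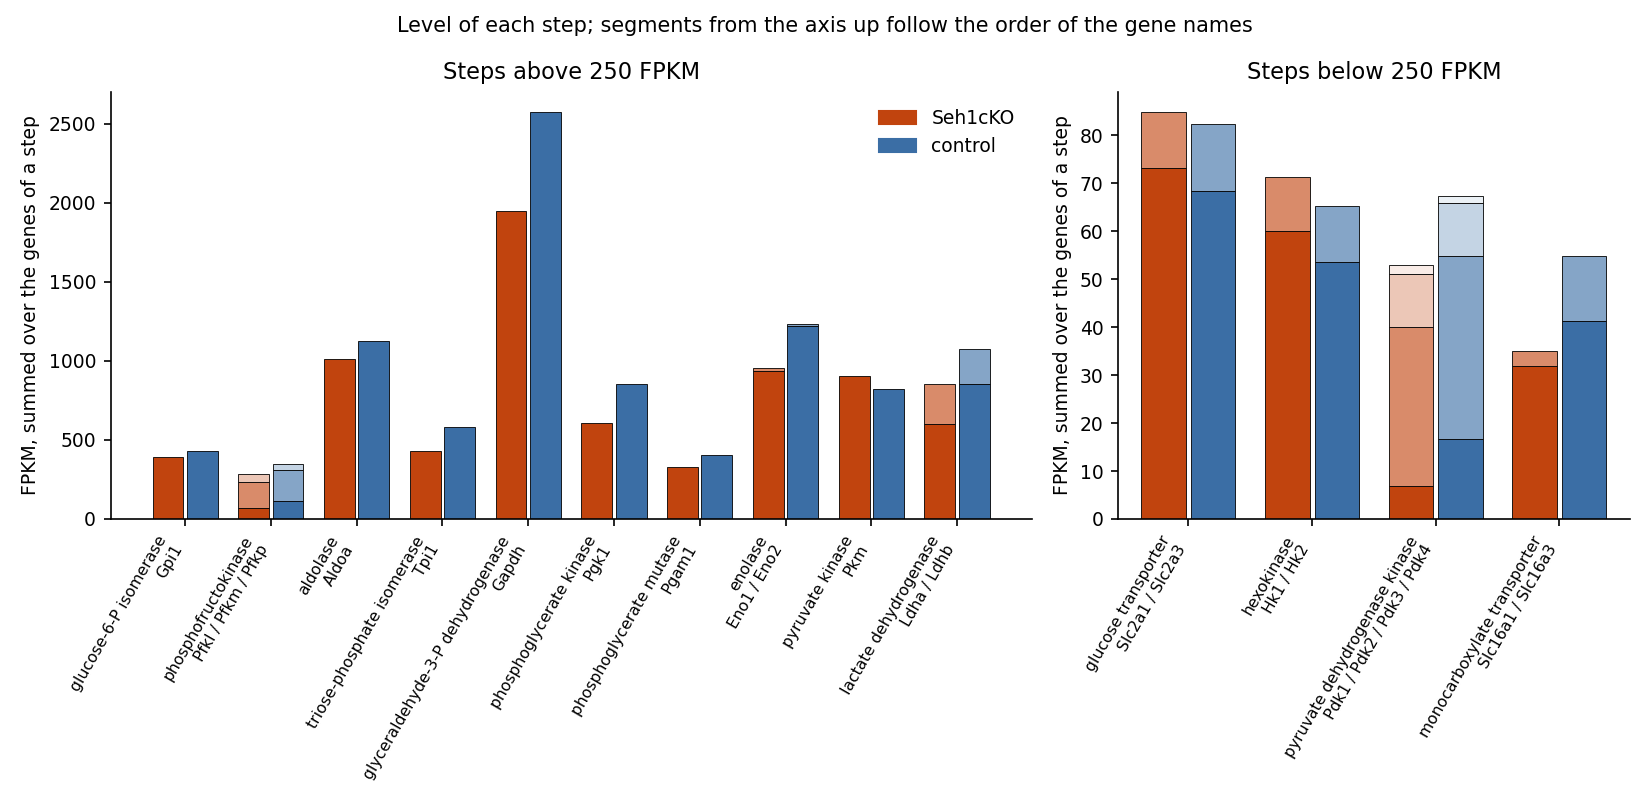
FPKM summed over the genes of each step, with the Seh1cKO bar left of the control bar and segments stacked from the axis up in the order of the gene names, on separate linear scales for steps above and below 250 FPKM. Gapdh stands highest, at 1947 FPKM in Seh1cKO and 2572 FPKM in control, and the pyruvate kinase, hexokinase and glucose transporter bars are the ones with Seh1cKO above control.

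Transcripts of the glucose transporters Slc2a1 and Slc2a3 and of the PFKFB enzymes differed by at most 1.21-fold, in both directions. Slc2a1, the most widely expressed glucose transporter, was at 189 CPM in Seh1cKO and 177 CPM in control, 1.07-fold higher (1.02 to 1.12). Slc2a3, the neuron-type transporter, was at 46.3 and 56.1 CPM, 1.21-fold lower (1.11 to 1.32). Pfkfb3 and Pfkfb4 code for the bifunctional enzymes that make and break the phosphofructokinase activator. Pfkfb3 was 1.13-fold lower (1.08 to 1.19), at 141 CPM in Seh1cKO and 160 CPM in control. Pfkfb4 was 1.19-fold higher (1.02 to 1.39), at 17.4 and 14.6 CPM.

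Of 4 genes of lactate handling 3 were lower in Seh1cKO, where 39.1% of all measured genes were lower. Ldha, the lactate dehydrogenase subunit that favours lactate formation (Entrez 16828, chromosome 7, 46842274 to 46855627), was at 990 CPM in Seh1cKO and 1410 CPM in control, 1.42-fold lower (1.40 to 1.45). Ldhb, the subunit that favours lactate use, was at 337 and 299 CPM, 1.13-fold higher (1.09 to 1.17). Ldha accounted for 70.2% of the summed lactate dehydrogenase FPKM in Seh1cKO and 79.1% in control. Slc16a1, which carries lactate out of oligodendrocytes, was at 142 and 185 CPM, 1.30-fold lower (1.23 to 1.36). With Slc16a3, both transporters summed to 35.0 FPKM in Seh1cKO and 54.9 FPKM in control, of which Slc16a3 gave 9.14% and 24.9%.

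Among the pyruvate dehydrogenase kinases, Pdk1 differed most and Pdk3 stood closest to equality. Pdk1 had 744 reads in Seh1cKO and 1814 in control, 2.42-fold lower (2.22 to 2.64). Pdk2, the kinase expressed most widely, was at 75.6 and 87.5 CPM, 1.16-fold lower (1.08 to 1.24). Pdk3, which is X-linked, was at 22.3 CPM in Seh1cKO and 21.9 CPM in control, with an interval of the ratio from 0.894 to 1.16 and a sign that turned under both other scalings. Pdk4, the kinase induced by fasting, was the scarcest, at 6.75 and 4.97 CPM, 1.36-fold higher (1.05 to 1.77). Of the summed kinase FPKM, Pdk1 gave 12.9% in Seh1cKO and 24.7% in control, and Pdk2 62.4% and 56.9%.

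Neither HIF alpha subunit was lower under the scaling by total reads, and Hif1a, near equality, changed sign under scaling by the median of ratios. Hif1a, the oxygen-regulated alpha subunit, had 2565 reads in Seh1cKO and 2490 in control, or 125 and 120 CPM. A difference between these counts was not detectable at this depth, with a ratio of 1.04 and an interval from 0.981 to 1.10. HIF alpha is regulated mainly as a protein, which was not measured here. Epas1, the second alpha subunit, prominent in endothelial and perivascular cells, was at 87.2 CPM in Seh1cKO and 60.2 CPM in control, 1.45-fold higher (1.35 to 1.56). The endothelial markers Cdh5 and Kdr are given above beside Adm. Egln3, a prolyl hydroxylase and itself a HIF target, was at 39.6 and 60.3 CPM, 1.52-fold lower (1.39 to 1.67). Egln1, the main oxygen sensor of the family, was 1.18-fold lower (1.13 to 1.24), at 139 CPM in Seh1cKO and 165 CPM in control.

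The other HIF targets were divided. Ankrd37, a small ankyrin repeat gene used as a hypoxia marker, had 53 reads in Seh1cKO and 99 in control, 1.86-fold lower (1.32 to 2.64), and it overlaps Ufsp2, whose mean level of 39.2 CPM was higher than its own. Vegfa, the growth factor of blood vessels, was at 193 and 228 CPM, 1.18-fold lower (1.13 to 1.23). Bnip3l, the relative of Bnip3 in mitophagy, was at 121 CPM in Seh1cKO and 139 CPM in control, 1.15-fold lower (1.09 to 1.21). P4ha1, a prolyl hydroxylase of collagen, was at 202 and 201 CPM, with an interval of the ratio from 0.967 to 1.05 and a sign that turned under both other scalings. Car9, a carbonic anhydrase of the cell surface, was at 13.7 and 11.7 CPM, with an interval from 0.984 to 1.40, and it overlaps Tpm2 and Arhgef39. With Bnip3 and Adm, these 7 genes had log2 ratios from -1.11 to 1.58.

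Related genes were also compared as ratios within each library, a measure that does not depend on library size. The first gene of each pair is the one entered as induced, and induction was not tested here. In 8 of 9 pairs the ratio of the first gene to the second, in FPKM, was lower in Seh1cKO. A lower ratio need not mean opposite directions. In the pairs of Slc16a3, Pdk1 and Bnip3, for example, both genes were lower in Seh1cKO. The Slc16a3 to Slc16a1 ratio was 0.101 in Seh1cKO and 0.332 in control, 3.30-fold lower. Pdk1 to Pdk2 was 0.207 in Seh1cKO and 0.434 in control, 2.09-fold lower, and Bnip3 to Bnip3l was 1.11 and 2.11. Ldha to Ldhb was 2.35 in Seh1cKO and 3.78 in control, 1.61-fold lower, and Eno1 to Eno2, without the copy Eno1b, 55.9 and 100.2. Egln3 to Egln2, whose second gene is a prolyl hydroxylase not induced by HIF, was 0.340 and 0.510. Hif1a to Epas1 was 1.67 in Seh1cKO and 2.35 in control, and Hk2 to Hk1 0.189 and 0.217. Slc2a1 to Slc2a3 was the exception, at 6.35 in Seh1cKO and 4.89 in control. The pairs and their order were chosen with earlier results of these data known, so the count is a description.

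**Figure D4:**
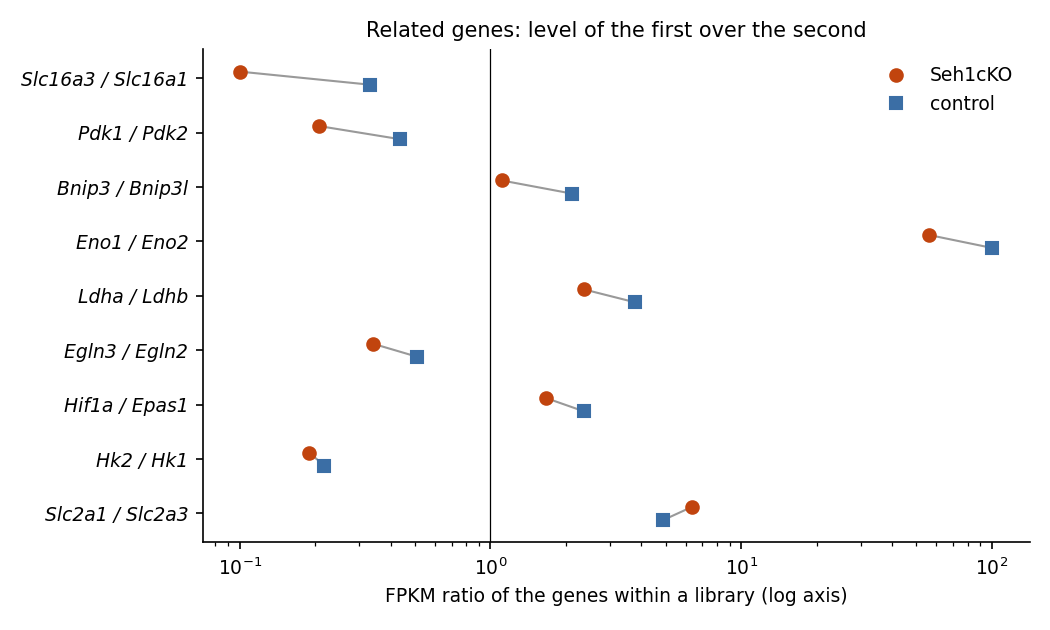
FPKM of the first gene over the second within each library (log axis), with Seh1cKO as circles above control as squares. The Seh1cKO circle lies left of the control square in 8 of 9 pairs, furthest for Slc16a3 over Slc16a1 at 0.101 in Seh1cKO and 0.332 in control.

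Other genes of these pathways did not share a direction. Of 40 measured genes in a list of 43 further HIF targets, 22 were lower (55.0%, against 39.1% of all measured genes) and 18 higher. Their median log2 ratio was -0.06 (-0.22 to 0.21), against 0.07 over all measured genes. With the median of ratios 26 were lower, with a median of -0.13, and with the upper quartile 24, with a median of -0.11. None was 2-fold lower, against a background of 1.29%, and 2 were 2-fold higher, against a background of 2.86%. These 2 were Loxl2 and Lox, which crosslink collagen, at 91.4 and 33.0 CPM in Seh1cKO and 27.1 and 9.70 CPM in control. Anxa2, a membrane-binding annexin, was 1.81-fold higher (1.75 to 1.88). All 3 are also expressed by fibroblasts, whose markers Fn1 and Thy1 were at 348 and 329 CPM in Seh1cKO and 114 and 279 CPM in control. The part of fibroblasts in the values of these 3 genes was not tested. Mxi1, a Myc antagonist, and Fam162a, a mitochondrial protein, were the 2 genes of this list at least 1.5-fold lower and are named after their values were seen. Mxi1 was at 58.0 and 101 CPM, 1.74-fold lower (1.62 to 1.87), and Fam162a at 101 and 153 CPM, 1.52-fold lower (1.44 to 1.61).

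The regulators of HIF differed little. Their median log2 ratio was -0.02 (-0.12 to 0.09), against 0.07 over all measured genes. All 15 lay within 1.5-fold, as did 11977 of the 13758 measured genes. Os9, which takes part in degrading proteins of the endoplasmic reticulum, was 1.29-fold lower (1.24 to 1.34), and Vhl, the subunit that recognises hydroxylated HIF alpha, 1.22-fold lower (1.13 to 1.32). The coactivators Crebbp and Ep300 were 1.17-fold higher (1.04 to 1.32) and 1.13-fold higher (1.03 to 1.23). Of 23 measured genes of 31 in the list of further glycolysis and glucose uptake, 11 were lower (47.8%, against 39.1% of all measured genes) and 12 higher. Their median log2 ratio of 0.03 (-0.21 to 0.19) was -0.05 after scaling by the median of ratios and -0.02 with the upper quartile. Gpd1, which diverts a triose phosphate towards glycerolipids, was at 46.3 CPM in Seh1cKO and 20.2 CPM in control, 2.29-fold higher (2.04 to 2.58), and was the 1 gene of the list past 2-fold. Eno3, the muscle enolase, was 1.70-fold lower (1.37 to 2.11) at 6.80 and 11.5 CPM, and Bpgm, which makes bisphosphoglycerate, 1.499-fold lower (1.41 to 1.59) at 86.8 and 130 CPM. Slc2a9, a urate and hexose transporter, was 1.65-fold higher (1.35 to 2.00). Aldoc, the astrocyte aldolase and itself 1 of the 12 astrocyte markers above, was at 504 CPM in Seh1cKO and 672 CPM in control.

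Citric acid cycle genes leaned the other way, which was also the direction of most measured genes. Of 12 citric acid cycle genes 11 were higher and 1 lower, where 60.9% of all measured genes were higher. Their median log2 ratio was 0.19 (0.02 to 0.31), against 0.07 over all measured genes. All 12 lay within 1.5-fold, as did 11977 of the 13758 measured genes. Under either other scaling, 9 of 12 were higher and 3 lower, with medians of 0.12 for the median of ratios and 0.15 for the upper quartile. Suclg2, a subunit of succinyl-CoA ligase, was 1.34-fold higher (1.24 to 1.45), at 72.7 CPM in Seh1cKO and 54.4 CPM in control. Ogdh, of the oxoglutarate dehydrogenase complex, was 1.28-fold higher (1.22 to 1.33), Fh1, fumarate hydratase, 1.24-fold higher (1.16 to 1.32) and Idh3a, of isocitrate dehydrogenase, 1.23-fold higher (1.17 to 1.29). Genes of pyruvate entry stood near the background, with 10 of 15 higher (60.9% of all measured genes were) and a median log2 ratio of 0.08 (-0.12 to 0.42), and with the median of ratios 8 were higher, with a median of 0.01. Pdp1 and Pdp2, the phosphatases that undo the work of the PDK enzymes, were at 29.9 and 9.66 CPM in Seh1cKO and 21.3 and 6.99 CPM in control, 1.40-fold and 1.38-fold higher, and their regulatory partner Pdpr was at 8.16 and 3.18 CPM, 2.56-fold higher (1.92 to 3.46). Emb, a partner protein of monocarboxylate transporters, was 1.40-fold higher (1.16 to 1.69). Of 8 genes of the pentose phosphate pathway 6 were higher, where 60.9% of all measured genes were. Their median log2 ratio was 0.03 (-0.20 to 0.58). After either other scaling 5 of 8 were lower, with medians of -0.04 and -0.01. H6pd, the dehydrogenase of the endoplasmic reticulum, was 1.52-fold higher (1.32 to 1.76), Pgd 1.29-fold higher (1.24 to 1.34) and G6pdx, which is X-linked, 1.07-fold higher (1.03 to 1.12), while Rpe, an epimerase, was 1.15-fold lower (1.03 to 1.28).

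**Figure D5:**
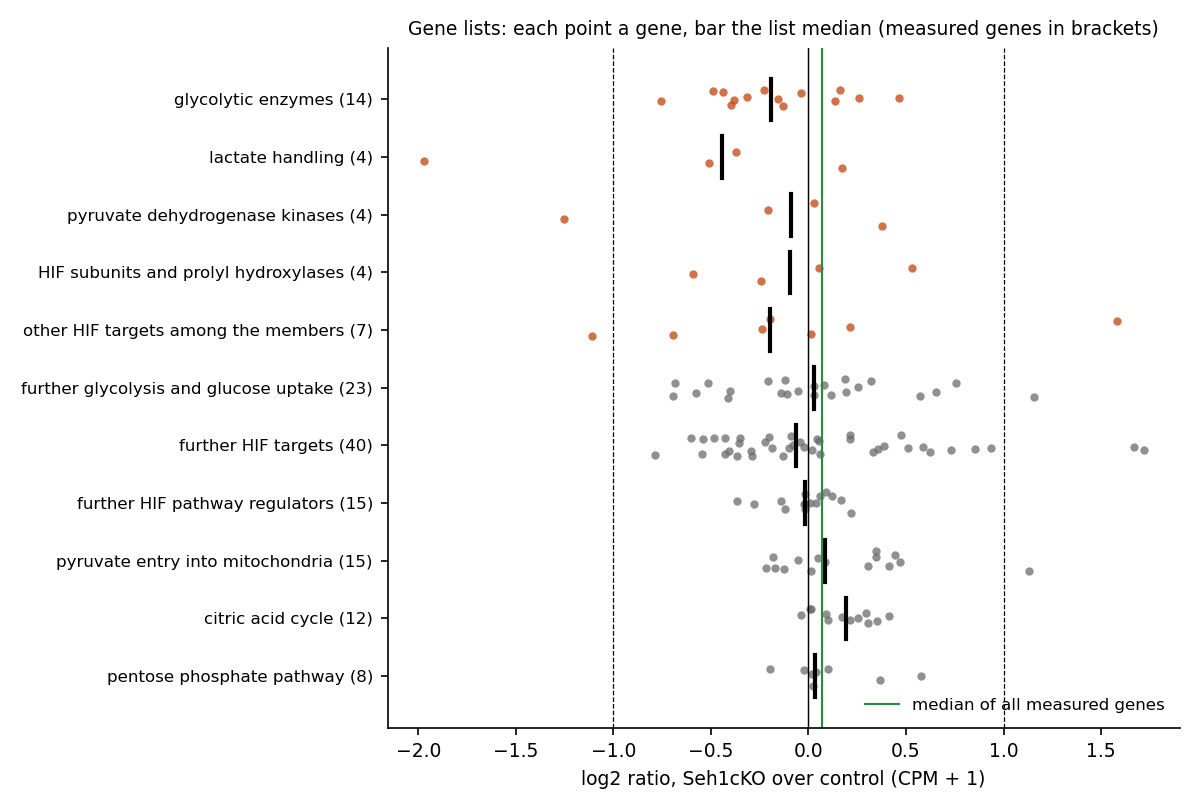
Log2 ratio of Seh1cKO over control for each measured gene of each list, with black bars at list medians and a green line at the median of all measured genes (0.07). The median of the 14 glycolytic enzymes stands at -0.19 and that of the 12 citric acid cycle genes at 0.19, with spread in both lists.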

How the data were processed

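RNA was sequenced from 1 Seh1cKO and 1 control culture. Per the file headers, the authors deposited an expected count (an estimated count of reads) and an FPKM value for each gene. HTSeq, StringTie and mm10 are named in the submitters' processing notes, without saying which tool made which column. No source used here gives the aligner or the strand setting. The authors' expected counts of 16 of the 37 genes were not whole (tolerance 0.005) in at least 1 library, and 7 overlap another measured gene. The authors' further table gives a log2 fold change per gene, with p-values that are not printed because each group has 1 library.

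Expected counts were rounded and scaled to 1000000 reads (CPM). Genes absent from a table were set to 0. A floor of 1 CPM (mean of both libraries), a pseudocount of 1 and a threshold of 2-fold were used. Intervals are exact Clopper-Pearson intervals (scipy 1.17.1, Python 3.11.15) and cover counting error only. A count of 0 allows up to 3 counts, 0.146 CPM in Seh1cKO and 0.145 CPM in control. The computation of ratios and intervals was checked on simulated whole counts with counting error only. That check covers neither variation between cultures nor counts that are not whole. Of 18651 identifiers 18611 matched the RefSeq table of GRCm38.p6, the assembly behind mm10, which gave coordinates and promoters. Genes were named by rule: all 37, up to 4 per further pathway list by absolute log2 ratio at a mean of 5 CPM or more, and the 2 most abundant of each cell type list, of which not every one is printed, and some genes are not reported here. Members and lists were chosen with earlier results of these data known. Alternatives were other pseudocounts, scalings and floors, FPKM, and leaving out X and Y genes or genes with near-identical copies. Summing Eno1 and Eno1b was added after the data were seen.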

Additional observations from a re-analysis of the deposited data

How the results depend on the processing

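No paired analysis was possible because each group holds 1 library, and no replicate could be left out. Among the 37 genes, the counts at least 2-fold lower (3) and higher (1) were the same under all 10 alternatives run. The other floors, the leaving out of genes and the summing of Eno1 and Eno1b do not alter the values of Slc16a3, Pdk1, Bnip3 and Adm. Only the other pseudocounts, the other scalings and the FPKM scale could move these genes. The count at least 1.5-fold lower (6) was 4 with a pseudocount of 5 CPM, 5 on the FPKM scale and with a floor of 5 CPM, and 7 with the median of ratios. The count lower by any amount was 26 after scaling by the median of ratios and 25 after scaling by the upper quartile, where Pdk3 and P4ha1, and with the median of ratios Hif1a, changed sign. Over all measured genes, those at least 2-fold higher numbered 637 with a pseudocount of 0.1 CPM, 141 with a pseudocount of 5 CPM, 204 on the deposited FPKM scale and 228 with a floor of 5 CPM, against 394. Those at least 2-fold lower numbered 116 with a pseudocount of 5 CPM, 148 on the FPKM scale, 146 with a floor of 5 CPM, 198 with the upper quartile, 211 with the median of ratios and 241 with a pseudocount of 0.1 CPM, against 178. The median log2 ratio of all measured genes, 0.07, was 0.055 with a pseudocount of 5 CPM, 0.055 with a floor of 5 CPM, 0.059 on the FPKM scale, 0.025 with the upper quartile and -0.00497 with the median of ratios. Depth limits Ankrd37 most, at 53 reads in Seh1cKO and 99 in control. The split of reads between genes and their near-identical copies was not tested beyond Eno1b.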
